A study of Homo sapiens with 16 samples.

Results

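The 5 genes described are the TAM receptor tyrosine kinases AXL, TYRO3 and MERTK and their ligands GAS6 and PROS1. They were chosen by gene symbol from a count table of 30813 genes, and each symbol matched 1 row. All 5 were followed over 16 RNA-seq libraries from human melanoma cells, in 8 groups of 2 libraries. DR A375 cells, resistant to dabrafenib and trametinib, were kept on dabrafenib (0.5 µM) with trametinib (0.05 µM), or had the drugs replaced by DMSO for 6, 24 or 48 h. 451Lu BR cells were kept on dabrafenib (1 µM) or given DMSO for 24, 72 or 120 h. The labels differ on the second line, since a source label adds trametinib resistance while the treatment text names dabrafenib alone. Both lines carry activated BRAF, all groups derive from drug-resistant cells, and no drug-naive parental cells were analysed here. Dabrafenib blocks BRAF and trametinib blocks MEK, 2 kinases of 1 signalling chain. There was no separate on-drug group at each time, so time in culture and drug withdrawal cannot be told apart.

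TAM receptors are single-pass membrane kinases with immunoglobulin and fibronectin type III domains outside the cell. GAS6 and protein S, the product of PROS1, bind phosphatidylserine on dying cells or vesicles through a vitamin K-dependent Gla domain and bind the receptors through their other end. GAS6 activates all members of the family, while protein S acts through TYRO3 and MERTK and is also a plasma anticoagulant. In melanoma AXL is known as a marker of the invasive, low-MITF state, and MERTK and TYRO3 are often found in more differentiated cells.

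Library totals ran from 9714190 to 16691725 counts. The melanocyte lineage markers MITF, SOX10, PMEL, MLANA, TYR, TYRP1, DCT, S100B and S100A1 had counts in both lines on drug. Together they summed to 2091 to 5244 CPM in A375 and 1177 to 11915 CPM in 451Lu, lowest off drug. S100A1 was the 1 marker higher at the last time of each line. It had 1178 CPM at 48 h against 82.5 CPM on drug in A375, and 329 CPM at 120 h against 88.0 CPM on drug in 451Lu. TYRP1 had 4 counts in A375 at 48 h and 0 in 451Lu at 120 h, where DCT had 5. Macrophages, fibroblasts and endothelium also use TAM genes, so their markers were read as well. The macrophage and leukocyte list, of which CD14, CSF1R, CD68, CD163 and PTPRC had a row, summed to 0.517 to 3.15 CPM in A375 and 0.272 to 5.29 CPM in 451Lu. PTPRC had 0 counts in 451Lu, but CSF1R had 0 counts there on drug, 15 at 24 h, 69 at 72 h and 82 at 120 h, and of 2 markers tested in 451Lu 1 was called higher at 24 h, 2 at 72 h and 1 at 120 h. In A375 PTPRC, the 1 tested, was lower off drug.

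The fibroblast list summed to 4.91 to 22.1 CPM in A375 and 32.7 to 153 CPM in 451Lu, highest on drug in each, and most of the on-drug sum was LUM. In 451Lu LUM was lower off drug, at 6.07 CPM at 120 h against 145.5 CPM on drug, while the 3 other markers tested there were called higher at each time. At 120 h against on drug, DCN had 4.19 against 0.0920 CPM, COL1A1 7.86 against 0.300 CPM and PDGFRB 38.9 against 0.315 CPM. THY1 had 0 counts in 451Lu. COL1A2 had 0 counts there on drug and 8 at 120 h, and COL3A1 had 0 counts on drug and 0 at 120 h. Neither collagen gene was among those tested. In A375 at 48 h 1 of 3 tested was higher and 1 lower. Of the endothelial list, PECAM1 had 0 counts in 451Lu on drug, 40 at 24 h, 443 at 72 h and 2593 at 120 h. VWF was lower at 120 h (0.364 against 0.959 CPM on drug), TEK had 0 counts in 451Lu and CDH5 had no row. The part of these markers in the results below was not tested. In such bulk libraries fewer cells of a type and less RNA per cell cannot be told apart.

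Levels are CPM, read counts scaled to library size with TMM factors over all 16 libraries. Changes are fitted log2 fold changes ± SE from edgeR's quasi-likelihood test within a line, positive when higher off drug. P-values were adjusted over every gene tested by the Benjamini-Hochberg method, and a change is called at an adjusted p under 0.05. No label states that the paired libraries of a group were grown apart, so the p-values cover only the differences among these samples, which may be technical. In A375 all 5 genes passed the filter on low counts. In 451Lu 4 did, and GAS6 did not. AXL passed through its off-drug libraries, and its calls against on drug were also made with no filter.

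Calls were common in these data, so the members' counts are read against the background. At 6 h in A375 1 of the 5 genes was called higher and 3 lower, where 35.1% of all genes tested were called higher and 38.1% lower. At 24 h the counts were again 1 and 3 (36.2% and 36.3% of all genes). At 48 h they were 1 and 4 (36.6% and 36.0%). In 451Lu 1 of 4 tested members was called higher at each time. There were 2 lower at 24 h, 2 at 72 h and 1 at 120 h. All genes tested were called higher and lower in 29.2% and 24.9% of cases at 24 h, 34.2% and 33.4% at 72 h, and 37.3% and 36.6% at 120 h. All comparisons with on drug in a line share its 2 on-drug libraries.

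**Figure D1:**
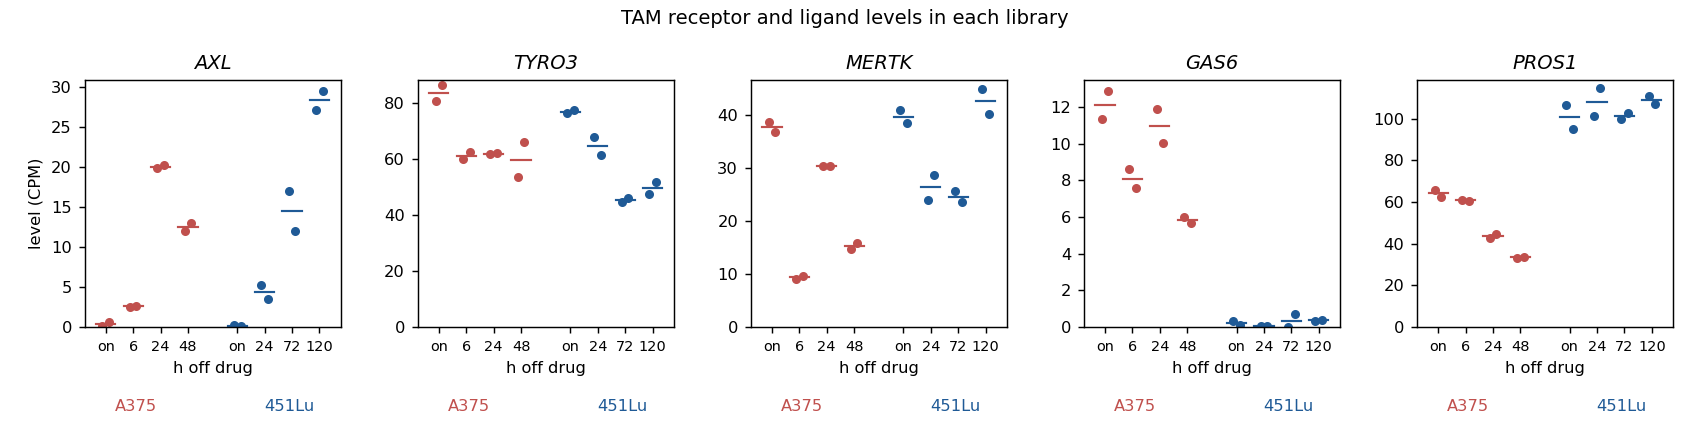
Level in CPM (vertical axis, linear, from 0) of each gene in every library. Points are libraries, bars are means of 2, red is A375 and blue is 451Lu, with hours off drug on the horizontal axis. AXL was under 1 CPM in all 4 on-drug libraries, and GAS6 was under 1 CPM in all 8 451Lu libraries.

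AXL was the member that rose in both lines. The gene (ENSG00000167601, GRCh38 chromosome 19, 41219203 to 41261766, plus strand) encodes the receptor that binds GAS6 most tightly. In A375 it had 2 and 9 counts on drug, 29 and 30 at 6 h, 329 and 247 at 24 h, and 136 and 151 at 48 h. As levels these were 0.110 and 0.576 CPM on drug, 2.47 and 2.68 CPM at 6 h, 19.8 and 20.2 CPM at 24 h, and 11.97 and 13.02 CPM at 48 h. Every off-drug library was above both on-drug libraries, and 24 h was above 48 h. Against on drug AXL rose by a log2 value of 2.91 ± 0.41 at 6 h (adjusted p = 9.80e-08), 5.86 ± 0.23 at 24 h (adjusted p = 7.66e-22) and 5.19 ± 0.27 at 48 h (adjusted p = 1.92e-18). Ordered by size among 14449 genes, counted from the highest, AXL stood 275th at 6 h, 87th at 24 h and 137th at 48 h. The size rests on few on-drug counts. Over leaving out 1 library at a time, with the other alternatives, the change ran from 2.11 to 4.40 at 6 h, 5.06 to 7.35 at 24 h and 4.39 to 6.68 at 48 h. The lower ends came without on-drug replicate 1 and the upper ends without on-drug replicate 2.

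Within A375 the rise of AXL was not steady. From 6 to 24 h off drug it rose by a further 2.96 ± 0.17 (adjusted p = 4.59e-17), and at 48 h it was lower than at 24 h, with a log2 change of -0.68 ± 0.12 (adjusted p = 3.34e-05). That last step was not called against a fold change of 1.5. In the first step 3 members were called higher and 1 lower, where 35.5% and 34.2% of all genes were.

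In 451Lu AXL was higher at each later time. It had 3 and 3 counts on drug, 73 and 41 at 24 h, 151 and 120 at 72 h, and 317 and 305 at 120 h. The levels were 0.204 and 0.174 CPM on drug, 5.24 and 3.51 CPM at 24 h, 16.96 and 11.97 CPM at 72 h, and 27.2 and 29.4 CPM at 120 h, with no overlap between any 2 of these groups. The means of CSF1R, DCN, COL1A1, PDGFRB and PECAM1 were also higher at each later time in 451Lu, and their part in the AXL values was not tested. Against on drug the log2 fold change was 4.52 ± 0.44 at 24 h (adjusted p = 2.53e-07), 6.19 ± 0.35 at 72 h (adjusted p = 1.41e-10) and 7.14 ± 0.30 at 120 h (adjusted p = 2.01e-12). It stood 134th, 179th and 177th from the highest of 13851 genes at these times. These sizes and ranks rest on 3 and 3 on-drug counts. Over all alternatives the change ran from 4.18 to 4.76 at 24 h, 5.92 to 6.40 at 72 h and 7.02 to 7.24 at 120 h. Each step was called as well: 1.67 ± 0.20 at 72 h against 24 h (adjusted p = 4.07e-06) and 0.96 ± 0.15 at 120 h against 72 h (adjusted p = 1.94e-04). The last step was not called against a fold change of 1.5. From 24 to 72 h, 1 member of 4 was called higher and 1 lower, where 25.9% and 25.5% of all genes were.

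Over the 8 groups AXL ran from 0.189 ± 0.0213 CPM in 451Lu on drug to 28.3 ± 1.61 CPM in 451Lu at 120 h (SD, n = 2). In between, low to high, stood A375 on drug, A375 at 6 h, 451Lu at 24 h, A375 at 48 h, 451Lu at 72 h and A375 at 24 h. Neighbours in that order overlapped in 2 cases, the on-drug groups with each other and A375 at 48 h with 451Lu at 72 h.

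AXL and MERTK are related receptors whose changes from on drug had opposite signs in A375, though not their changes between off-drug times. The stretches just upstream of their RefSeq starts are therefore shown, 250 bases each on build GRCh38.p14. That of AXL lies at chr19:41218973-41219222 and that of MERTK at chr2:111898357-111898606, both on the plus strand and written 5′ to 3′. The gene starts given here for AXL (41219203) and MERTK (111898479) lie inside these stretches. By those starts, the bases after them are within the genes. Capitals mark GGGCGG, a sequence bound by the general factor SP1, or its complement CCGCCC on the other strand.
AXL: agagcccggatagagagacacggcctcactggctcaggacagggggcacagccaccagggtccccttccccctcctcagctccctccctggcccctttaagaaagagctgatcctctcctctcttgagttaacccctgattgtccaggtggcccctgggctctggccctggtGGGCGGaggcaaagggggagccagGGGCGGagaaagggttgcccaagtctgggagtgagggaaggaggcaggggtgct
MERTK: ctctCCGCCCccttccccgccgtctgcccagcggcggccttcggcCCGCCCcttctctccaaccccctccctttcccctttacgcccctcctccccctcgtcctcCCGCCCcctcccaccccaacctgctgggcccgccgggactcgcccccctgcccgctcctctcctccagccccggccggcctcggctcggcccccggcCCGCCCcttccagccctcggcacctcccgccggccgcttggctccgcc
The AXL stretch holds 2 such matches and that of MERTK holds 4, and 42.6% of 35116 stretches of this length upstream of a gene start hold at least 1. The AP-1 sequence TGANTCA (present in 6.57% of all stretches), the E-box CACGTG (6.34%), CATGTG of the MITF M-box (9.42%) and the TEAD sequence GGAATG (11.9%) were searched on both strands without a match in either. A second RefSeq start of AXL at a downstream position has 1 match each to CATGTG and GGAATG. Such matches describe letters only. No binding was measured.

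TYRO3 was the most even of the receptors and was lower off drug in both lines. The gene (ENSG00000092445, chromosome 15, 41557675 to 41583586, plus strand) encodes the family member best known from the nervous system. In A375 it had 80.7 and 86.2 CPM on drug, 59.8 and 62.3 CPM at 6 h, 61.8 and 62.0 CPM at 24 h, and 53.7 and 65.9 CPM at 48 h. Every off-drug library was below both on-drug libraries, and the 3 off-drug groups overlapped one another. The log2 fold change was -0.49 ± 0.07 at 6 h (adjusted p = 6.62e-08), -0.47 ± 0.06 at 24 h (adjusted p = 7.86e-08) and -0.51 ± 0.07 at 48 h (adjusted p = 2.61e-08). Neither step between off-drug times was called (adjusted p = 0.799 and 0.679), although without 48 h replicate 2 the second was, at -0.21.

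In 451Lu TYRO3 had 76.2 and 77.5 CPM on drug, 67.8 and 61.5 CPM at 24 h, 44.5 and 46.1 CPM at 72 h, and 47.6 and 51.6 CPM at 120 h. The log2 fold change was -0.76 ± 0.08 at 72 h (adjusted p = 1.77e-07) and -0.65 ± 0.07 at 120 h (adjusted p = 5.94e-07). The smaller change at 24 h, -0.22 ± 0.07 (adjusted p = 0.0146), lost its call in 4 of 10 alternatives, among them without on-drug replicate 2 (-0.21) and without 24 h replicate 2 (-0.15), and its adjusted p ran from 0.00572 to 1 over them. The step from 24 to 72 h was called (-0.54 ± 0.08, adjusted p = 2.64e-05, though not against a fold change of 1.5), and that from 72 to 120 h was not (0.11 ± 0.08, adjusted p = 0.327). The processed pseudogene TYRO3P, whose reads could be confused with those of TYRO3, had 0 to 8 counts in a library, against 396 to 1463 for TYRO3.

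MERTK fell off drug in both lines and was nearer its on-drug level again at 24 h in A375 and at 120 h in 451Lu. The gene (ENSG00000153208, chromosome 2, 111898479 to 112029561, plus strand) encodes the receptor through which macrophages and retinal pigment cells take up dying cells or cell fragments. In A375 it had 38.7 and 36.8 CPM on drug, 9.12 and 9.66 CPM at 6 h, 30.3 and 30.3 CPM at 24 h, and 14.8 and 15.9 CPM at 48 h. No 2 of these groups overlapped: 6 h was lowest, 24 h came near the on-drug level and 48 h was low again. MERTK changed by a log2 value of -2.05 ± 0.10 at 6 h (adjusted p = 1.33e-19), -0.35 ± 0.07 at 24 h (adjusted p = 5.48e-05) and -1.33 ± 0.09 at 48 h (adjusted p = 1.14e-15). Both steps were called, 1.69 ± 0.10 at 24 h against 6 h (adjusted p = 2.10e-16) and -0.98 ± 0.09 at 48 h against 24 h (adjusted p = 1.91e-10). For the second step 15.7% of all genes were called lower and 14.2% higher, and of the 5 members 4 were lower and 0 higher.

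In 451Lu MERTK had 40.9 and 38.4 CPM on drug, 24.0 and 28.7 CPM at 24 h, 25.6 and 23.5 CPM at 72 h, and 44.9 and 40.2 CPM at 120 h. The groups at 24 and 72 h overlapped each other and lay below the on-drug libraries, while those at 120 h overlapped the on-drug ones. Against on drug MERTK differed by -0.57 ± 0.10 at 24 h (adjusted p = 1.11e-04), -0.69 ± 0.10 at 72 h (adjusted p = 1.71e-05) and 0.09 ± 0.09 at 120 h (adjusted p = 0.384). Between 72 and 120 h MERTK rose by 0.78 ± 0.10 (adjusted p = 3.45e-05), a step in which 2 of the 4 tested members were called higher and 0 lower, where 16.6% of all genes were called higher and 16.1% lower. AXL was the other.

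Against a fold change of 1.5 no TYRO3 change from on drug was called except that at 72 h in 451Lu. The MERTK changes at 24 h in A375 and at 24 and 72 h in 451Lu also did not pass there, nor did its last step in 451Lu.

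**Figure D2:**
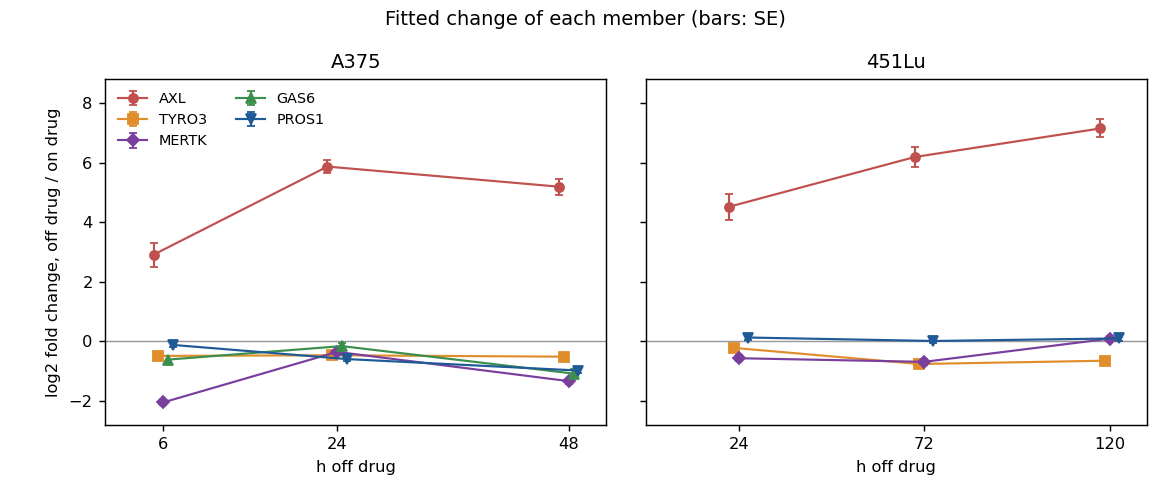
Fitted log2 fold change of each member, off drug over on drug, against hours off drug in A375 (left) and 451Lu (right), with bars for the SE and points shifted slightly sideways. AXL stands above the other members at every time, up to 7.14 in 451Lu at 120 h, and GAS6 did not pass the filter on low counts in 451Lu.

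Levels of different genes can be set side by side only per length. CPM were divided by the length of the longest principal transcript in GENCODE 29, which was 4737 bases for AXL, 8207 for TYRO3, 3954 for MERTK, 2490 for GAS6 and 3583 for PROS1. On this scale the 3 receptors summed to 19.6 and 19.9 CPM per kb in A375 on drug, 10.1 and 10.6 at 6 h, 19.4 and 19.5 at 24 h, and 12.8 and 14.8 at 48 h. In 451Lu the sum was 19.7 and 19.2 CPM per kb on drug, 15.4 and 15.5 at 24 h, 15.5 and 14.1 at 72 h, and 22.9 and 22.7 at 120 h.

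The makeup of that sum changed too. AXL took 0.119% and 0.610% of it in A375 on drug, 5.16% and 5.34% at 6 h, 21.6% and 21.9% at 24 h, and 19.7% and 18.6% at 48 h. In 451Lu AXL took 0.219% and 0.191% on drug, 7.17% and 4.79% at 24 h, 23.1% and 17.9% at 72 h, and 25.1% and 27.4% at 120 h. TYRO3 and MERTK shared the rest, and in A375 at 6 h TYRO3 took 72.0% and 71.6%. MERTK stayed above AXL per kb in all 16 libraries, and TYRO3 did as well, by the least in 451Lu at 120 h, where TYRO3 had 6.04 ± 0.351 and AXL 5.97 ± 0.339 CPM per kb (SD, n = 2). With the union of all annotated exons as length, the AXL share at 120 h averaged 28.8% in place of 26.2%, an alternative chosen after seeing the data. AXL then stood above TYRO3 there, at 27.5% and 30.1% of the sum against 22.7% and 24.8%.

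**Figure D3:**
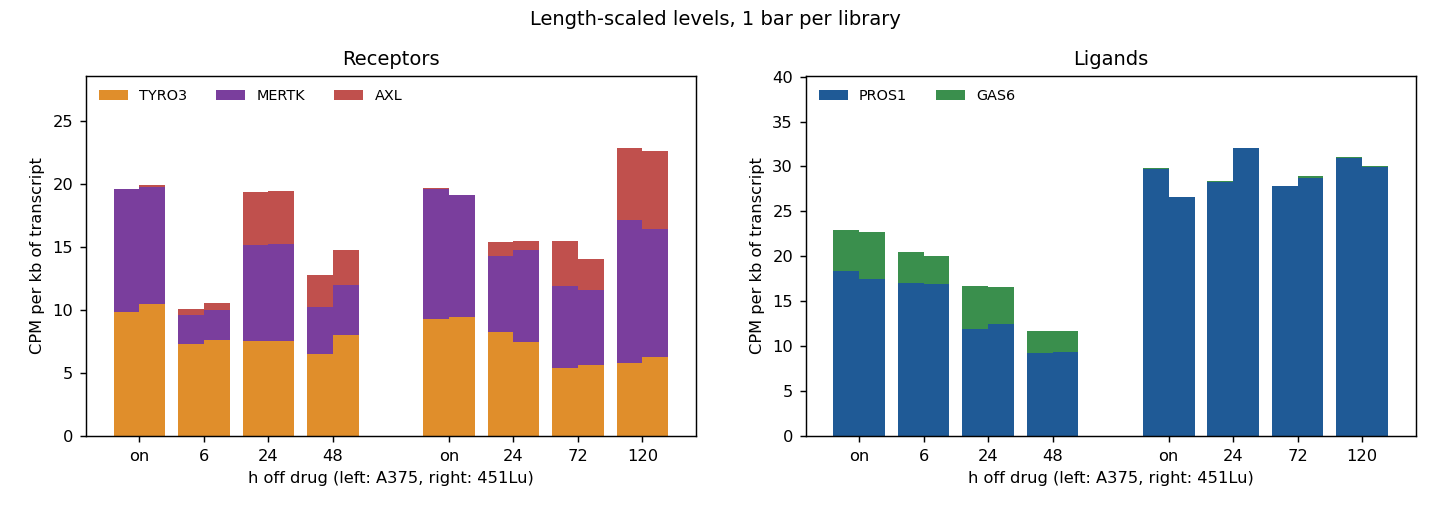
Stacked levels in CPM per kb of transcript (vertical axes, from 0) with 1 bar per library, for the receptors (left) and the ligands (right), by hours off drug. AXL is a thin strip on drug and reaches 27.4% of the receptor bar in 451Lu at 120 h, while GAS6 is visible in the A375 bars and hardly in those of 451Lu.

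Of the ligands, PROS1 fell with time off drug in A375, and no change was called for it in 451Lu. The gene (ENSG00000184500, chromosome 3, 93873033 to 93974066, minus strand) had 65.9 and 62.7 CPM in A375 on drug, 60.9 and 60.7 CPM at 6 h, 42.8 and 44.8 CPM at 24 h, and 33.2 and 33.6 CPM at 48 h. The 4 groups did not overlap, each below the one before. The log2 fold change was -0.12 ± 0.06 at 6 h (adjusted p = 0.0726, not called), -0.59 ± 0.06 at 24 h (adjusted p = 1.35e-10) and -0.98 ± 0.07 at 48 h (adjusted p = 3.76e-15). Both later steps were called, at -0.47 ± 0.06 (adjusted p = 6.84e-08) and -0.39 ± 0.07 (adjusted p = 7.87e-05). Against a fold change of 1.5 only the change at 48 h was called.

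In 451Lu PROS1 had 106 and 95.1 CPM on drug, 101 and 115 CPM at 24 h, 99.7 and 103 CPM at 72 h, and 111 and 107 CPM at 120 h. The groups at 24 and 72 h overlapped the on-drug group, and both libraries at 120 h lay just above it. The log2 fold changes were 0.13 ± 0.07 (adjusted p = 0.136), 0.01 ± 0.07 (adjusted p = 0.886) and 0.10 ± 0.07 (adjusted p = 0.216). Without 24 h replicate 1 the change at 24 h was 0.22 and was called (adjusted p = 0.0418, with a range of 0.0418 to 1 over all alternatives). The unprocessed pseudogene PROSP had at most 1 count in a library.

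GAS6 (ENSG00000183087, chromosome 13, 113820549 to 113864067, minus strand), the ligand of all members of the family, was lower at 6 and 48 h in A375. It had 11.4 and 12.9 CPM on drug, 8.60 and 7.60 CPM at 6 h, 11.9 and 10.1 CPM at 24 h, and 5.98 and 5.69 CPM at 48 h. Libraries at 24 h overlapped those on drug, and those at 6 and 48 h lay below. The log2 fold change was -0.61 ± 0.13 at 6 h (adjusted p = 1.32e-04), -0.16 ± 0.12 at 24 h (adjusted p = 0.226) and -1.08 ± 0.14 at 48 h (adjusted p = 4.13e-08). The fall between 24 and 48 h was called (-0.92 ± 0.15, adjusted p = 1.14e-05). The rise between 6 and 24 h (0.45 ± 0.14, adjusted p = 0.00477) lost its call without 6 h replicate 2 (0.36), without 24 h replicate 1 (0.32), with DESeq2 (0.43) and against a fold change of 1.5, with adjusted p from 0.00226 to 1 over all alternatives. That last test also ended the calls of GAS6 at 6 h and between 24 and 48 h.

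The strand setting of the counting is not given in the sources used here, and the antisense gene GAS6-AS1 overlaps GAS6. GAS6-AS1 had 21 and 16 counts in A375 on drug, 1 and 7 at 6 h, 14 and 13 at 24 h, and 26 and 23 at 48 h, against 206 and 201, 101 and 85, 197 and 123, and 68 and 66 for GAS6. Reads from the stretch that both genes cover cannot be told apart without strand. AXL is overlapped by 1 antisense gene with at most 1 count in a library.

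In 451Lu GAS6 was near the detection limit, with 5 and 2 counts on drug, 1 and 1 at 24 h, 0 and 7 at 72 h, and 4 and 4 at 120 h. It did not pass the filter in that line. With no filter, with DESeq2 and in the fit over all 16 libraries no change of GAS6 was called there (adjusted p 0.237 to 1), and no direction is given. Per kb, GAS6 took 19.9% and 22.8% of the 2 ligands together in A375 on drug, 28.5% and 24.4% at 24 h, and at most 0.968% in any 451Lu library. The ligand sum was 11.7 CPM per kb in both A375 libraries at 48 h, against 23.0 and 22.7 on drug.

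The lines were then compared with each other, in 1 fit over all 16 libraries. Line and drug regimen cannot be told apart in it. On drug, GAS6 had 12.1 ± 1.06 CPM in A375 and 0.228 ± 0.159 CPM in 451Lu (SD, n = 2), on 407 and 7 counts. It entered this fit only through the A375 libraries, so its levels are given with no test. PROS1 was lower in A375, 64.3 ± 2.28 against 100.8 ± 7.996 CPM, a log2 difference of -0.65 ± 0.06 (adjusted p = 9.66e-10) that was not called against a fold change of 1.5. No difference was called for TYRO3 (0.12 ± 0.07, adjusted p = 0.122) or MERTK (-0.07 ± 0.08, adjusted p = 0.439). AXL entered this fit through its off-drug libraries, with 2 and 9 counts on drug in A375 and 3 and 3 in 451Lu. Its value of 0.77 ± 0.79 (adjusted p = 0.384) rests on too few counts to tell a difference from none. For AXL the difference was -0.72 without A375 on-drug replicate 2, on 2 counts against 3 and 3. TYRO3 was called higher in A375 with RLE size factors (0.17) and without A375 on-drug replicate 1 (0.20). Of PROS1, TYRO3 and MERTK, PROS1 alone was called in the fit with TMM factors and all libraries. There 37.9% of all genes were called higher and 39.3% lower in A375.

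At 24 h off drug, the time the lines share, AXL was higher in A375, 20.0 ± 0.257 against 4.38 ± 1.22 CPM, which is 2.17 ± 0.17 on the log2 scale (adjusted p = 1.28e-11). GAS6 had 320 counts in A375 and 2 in 451Lu, and again no test is given. PROS1 was lower in A375 by a log2 change of -1.30 ± 0.07 (adjusted p = 2.50e-15). MERTK was higher in A375 by 0.21 ± 0.09 (adjusted p = 0.0360), a call lost in 5 of 9 alternatives with adjusted p from 0.00358 to 1, including without A375 24 h replicate 1 (0.23) or 2 (0.21) and without 451Lu 24 h replicate 1 (0.10). Of the 4 members besides GAS6, 2 were higher and 1 lower, where 40.5% and 38.3% of all genes were.

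Whether the 24 h change itself differed was tested as the A375 change minus the 451Lu change. PROS1 was the member that passed, at -0.66 ± 0.09 (adjusted p = 2.00e-06): it fell in A375 and was not called in 451Lu. Among all genes 27.4% had a higher and 22.0% a lower change in A375. The AXL difference was 1.40 ± 0.93 (adjusted p = 0.225), with 0.59 (adjusted p = 0.661) without A375 on-drug replicate 1 and 2.89 (adjusted p = 0.0390) without replicate 2, the ends of the range over all alternatives. It rests on 11 on-drug counts in A375 and 6 in 451Lu. MERTK differed by 0.28 ± 0.12 (adjusted p = 0.0564), with a call in 3 of 13 alternatives, among them without 451Lu on-drug replicate 2 (0.33) and without 451Lu 24 h replicate 2 (0.39). TYRO3 (-0.18 ± 0.10) did not pass. GAS6 entered this fit only through the A375 libraries and had 2 counts in 451Lu at 24 h, so no test is given for it.

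Genes that act around the receptors were read from lists, at the last time of each line, where 36.6% of all genes were called higher and 36.0% lower in A375 and 37.3% and 36.6% in 451Lu. Genes of receptor shedding and turnover were mostly higher. Of 11 tested, 9 were higher and 2 lower in A375 at 48 h, and 10 higher and 1 lower in 451Lu at 120 h. Median log2 changes were 0.48 and 1.17, against 0.00 for all genes in both. The A375 count of 9 higher was 8 with DESeq2, with no filter and with the replicate block. The 451Lu count of 10 higher was 9 with DESeq2. The sheddases ADAM10 and ADAM17, which cut AXL and MERTK off the surface, had log2 changes of 0.11 ± 0.05 and 0.48 ± 0.08 in A375 and 0.55 ± 0.06 and 1.17 ± 0.07 in 451Lu, all called higher. TIMP1, a metalloprotease inhibitor, had 1253 ± 87.1 against 68.7 ± 5.58 CPM in A375 and 4233 ± 793 against 26.9 ± 1.26 CPM in 451Lu, off against on drug (SD, n = 2). TIMP3, which inhibits ADAM17, rose by 2.87 ± 0.20 in A375 and 3.39 ± 0.31 in 451Lu. UBASH3B, whose product binds CBL, rose by 1.29 ± 0.09 in A375 and 1.89 ± 0.06 in 451Lu. The ubiquitin ligase gene CBL rose by 1.42 ± 0.06 in A375, and the gamma-secretase subunit gene APH1A fell by 1.57 ± 0.06 on the log2 scale in 451Lu.

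Adaptors and kinases below the receptors split in A375, with 14 higher and 8 lower of 26 tested (median log2 change 0.13), and leaned higher in 451Lu, with 19 and 5 of 26 (median 0.48). SHC1, an adaptor between receptors and RAS, had 600.5 ± 15.1 against 140.2 ± 2.07 CPM at 120 h in 451Lu. PIK3R1, which encodes a regulatory subunit of PI3 kinase, fell in A375, to 29.6 ± 2.77 CPM, against 79.5 ± 0.824 CPM on drug. STAT3, a transcription factor gene, fell there with a log2 change of -0.83 ± 0.05, and VAV3, which encodes a guanine nucleotide exchange factor, rose by 1.43 ± 0.10 in 451Lu.

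Receptors reported to pair or cross-talk with AXL were 2 higher and 4 lower of 8 in A375 (median -0.79) and 6 higher and 2 lower in 451Lu (median 2.65). EGFR fell in A375, with a log2 change of -0.998 ± 0.094, and rose in 451Lu by 3.15 ± 0.65, there on levels of 1.46 ± 0.840 against 0.160 ± 0.0623 CPM. ERBB3, a receptor of neuregulin, fell in A375 to 174 ± 1.48 CPM, against 426 ± 0.601 CPM on drug. PDGFRB, a platelet-derived growth factor receptor, rose to 38.9 ± 2.83 CPM in 451Lu, against 0.315 ± 0.0355 CPM on drug. It is also on the fibroblast list given above, of which DCN and COL1A1 were likewise higher and LUM lower. PDGFRA rose there by 5.58 ± 0.38. LRP1, an endocytic receptor gene, fell in A375 (-0.59 ± 0.05) and rose in 451Lu (2.14 ± 0.07). MET, the hepatocyte growth factor receptor, was called higher in A375 (0.44 ± 0.05) and lower in 451Lu (-0.36 ± 0.06), both small changes.

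Genes of phosphatidylserine exposure and uptake numbered 3 higher and 5 lower of 10 in A375 (median -0.03) and 6 and 5 of 11 in 451Lu (median 0.54). The A375 count of 5 lower was 3 with DESeq2, in the fit over all 16 libraries, without on-drug replicate 2 and without 48 h replicate 2. ITGB5, an integrin subunit of the MFGE8 uptake route, rose by 0.97 ± 0.06 in A375 and 2.21 ± 0.06 in 451Lu, and SCARB1, a scavenger receptor gene, fell by 2.71 ± 0.07 on the log2 scale in 451Lu. ITGAV, the partner of ITGB5, fell by 0.67 ± 0.05 in A375, and the flippase gene ATP8A1 fell by 2.82 ± 0.14 in 451Lu, both on the log2 scale. The vitamin K cycle and Gla carboxylation, on which both ligands depend, had 2 higher and 4 lower of 6 in A375 (median -0.38) and 3 and 2 of 6 in 451Lu (median 0.05). The higher count in 451Lu was 1 without on-drug replicate 1 and without 120 h replicate 1, and 2 without 120 h replicate 2, with DESeq2 and with no filter. That in A375 was 1 without either on-drug replicate, without 48 h replicate 1, with DESeq2 and with no filter. GGCX, the carboxylase itself, fell in A375 to 40.5 ± 0.960 CPM, against 52.9 ± 0.219 CPM on drug, and VKORC1, which recycles vitamin K, rose by 0.70 ± 0.09 in A375 and 0.90 ± 0.09 in 451Lu. NQO1, a quinone reductase gene, fell in A375 with a log2 change of -2.20 ± 0.04, and AIFM2, which encodes a reductase of vitamin K, fell in 451Lu (-0.49 ± 0.09). Of the other reported ligands, LGALS3, which encodes galectin-3, fell in both lines, to 102 ± 8.18 CPM in A375, against 218 ± 6.28 CPM on drug, and to 178 ± 9.34 CPM in 451Lu, against 616 ± 10.5 CPM on drug. TUB rose by 0.34 ± 0.05 in A375 and fell in 451Lu with a log2 change of -2.59 ± 0.09.

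Factors reported to act at the AXL promoter went both ways, 5 higher and 6 lower of 12 in A375 (median -0.03) and 8 and 3 of 12 in 451Lu (median 0.31). FOSL1, an AP-1 subunit gene, rose by 3.38 ± 0.08 in A375 and 1.01 ± 0.09 in 451Lu. MITF (-3.21 ± 0.06) and TFAP2A (-1.69 ± 0.07) fell in A375, while HIF1A, a factor of the response to low oxygen, rose (2.51 ± 0.07) and SOX10, a neural crest factor, fell (-1.16 ± 0.06) in 451Lu. JUN fell in A375 (-0.72 ± 0.08) and rose in 451Lu (1.64 ± 0.15), and so did YAP1, at -0.16 ± 0.05 in A375 and 1.07 ± 0.06 in 451Lu. None of these lists was tested as a set, and the times differ between the lines. Against a fold change of 1.5, where 15.1% of all genes were called higher and 16.2% lower in A375 and 22.1% and 18.9% in 451Lu, the counts were smaller. The shedding list then had 4 higher and 1 lower in A375 and 8 and 1 in 451Lu, the adaptors 3 and 3 in A375 and 10 and 3 in 451Lu, and the cross-talk receptors 0 and 3 in A375 and 5 and 1 in 451Lu.

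**Figure D4:**
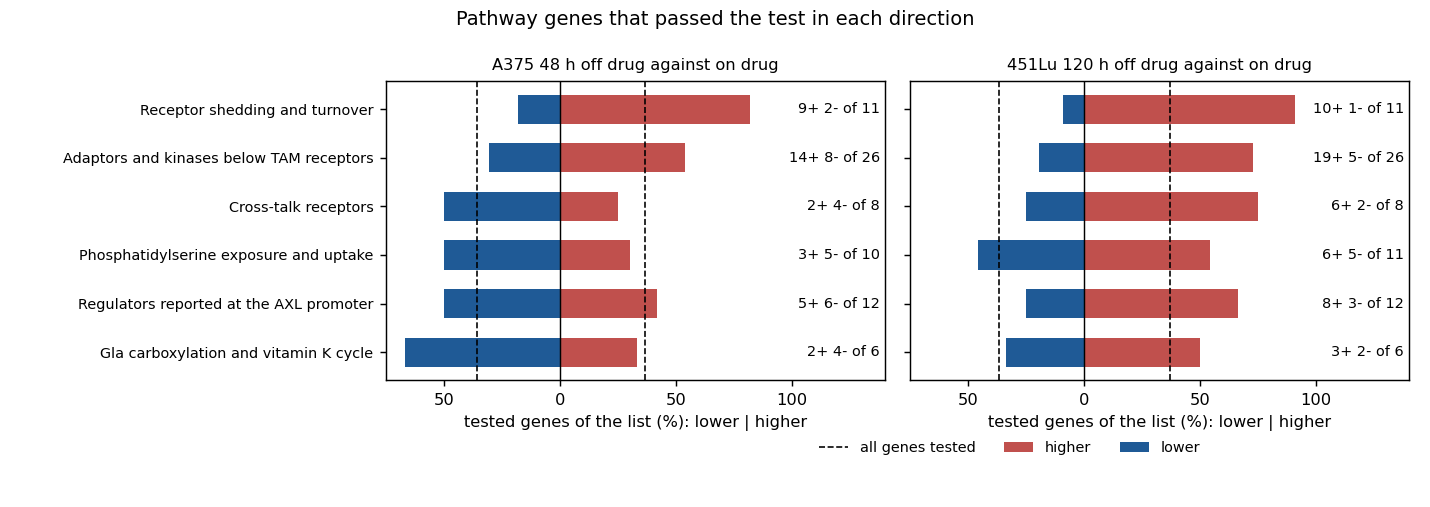
Share of each list's tested genes called higher (red, right of 0) or lower (blue, left of 0), in percent, for A375 at 48 h and 451Lu at 120 h, off drug against on drug, with the counts beside the bars. Dashed lines give the same shares over all genes tested, 36.6% higher and 36.0% lower in A375 and 37.3% and 36.6% in 451Lu.

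The genes whose pattern was most like that of each member were sought among 15480 others, by Pearson's r of mean log2 CPM over the 8 groups. These points share libraries within a group and on-drug baselines within a line, and r is given as a description. For AXL they were RUSC2 (r = 0.9906), CLCF1 (0.9836), the gene ENSG00000223485 (0.9836), CD52 (0.9815) and DLG4 (0.98). CLCF1, a cytokine gene of the interleukin 6 family, had 30.2 against 0.500 CPM in A375 at 48 h and on drug, and 152 against 0.276 CPM in 451Lu at 120 h and on drug. For TYRO3 the first were PDDC1 (0.9613), AC034220.3 (0.9577) and ABCB6 (0.9517), and for MERTK C3orf18 (0.9396), MGAT4A (0.937) and WDR7 (0.9366). For GAS6, whose pattern is mostly the difference between the lines, they included RUNX1T1 (0.9963) and CACNA1C (0.9959). For PROS1, which was lower in every A375 group than in any 451Lu group, they were ARHGAP27 (0.9948), VAPB (0.9948) and HELQ (0.992). Among the members themselves r was -0.8532 for AXL with TYRO3 and -0.8473 for GAS6 with PROS1. The other pairs ran from -0.3751 to 0.4762.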

How the data were processed

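RNA-seq of total RNA gave 16 libraries in 8 groups of 2, grouped by their titles. The authors deposited raw read counts per Ensembl gene. Per the submitters' processing notes, TopHat2 2.1.0 and Bowtie 1.0.0 were used with build GRCh38. For the read counter, annotation release, strand setting and filters, no source used here gives a name. R 4.3.3 and edgeR 4.0.16 were used. Each line had its own fit over its 4 groups (TMM, filterByExpr with minimum count 10 and minimum total 15, quasi-likelihood F test, 4 residual degrees of freedom), over 14449 genes in A375 and 13851 in 451Lu. Comparisons between lines came from a joint fit over 15481 genes with 8 residual degrees of freedom. SEs were derived from the log2 fold change and its F statistic. TMM scaling makes every value relative to the bulk of the genes. Log2 CPM for pattern likeness used a prior count of 2. Transcript lengths came from GENCODE 29, and upstream sequences from RefSeq. Of 115 list entries 110 matched by symbol and 1 by Ensembl ID. Scripts were tested on simulated data. Libraries of a group differed by more than sampling noise (chi-square per degree of freedom 1.27 to 5.61), so none was taken for a repeat deposit, which does not show that they came from separate cultures. Alternatives were RLE size factors, no count filter, DESeq2 1.42.0, a test against a fold change of 1.5, a replicate block, a joint fit and leaving out each library. All members were named. For each list, up to 3 genes with the smallest adjusted p at each line's last time were named, and ADAM10, ADAM17, TIMP3, MET and JUN, and values of a named gene in the other line, were added after their values were seen. A few genes that these rules name are not reported here. The members and lists were chosen with earlier results of these data known.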

Additional observations from a re-analysis of the deposited data

Results flagged for a closer look

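The 24 h change of PROS1 differed between the lines, A375 minus 451Lu, by a log2 value of -0.66 ± 0.09 (edgeR, adjusted p = 2.00e-06). Both A375 libraries at 24 h were below both on-drug libraries, while those of 451Lu overlapped their on-drug group. Over 13 alternatives the difference ran from -0.76 to -0.57, and the call was lost only against a fold change of 1.5. Drug regimen and line cannot be told apart in it.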

How the results depend on the processing

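The tests of 60 member comparisons were repeated under the alternatives, which gave 587 combinations of a comparison and a setting. Direction and side of the threshold were kept in 539 of them. A call was lost in 31 combinations, of which 21 tested against a fold change of 1.5, 3 used DESeq2 and 7 left out a library. In 8 a call was gained. No call was lost with RLE size factors, without the filter, in the joint fit or under the replicate block. The sign turned in 9 combinations, none of them for a called change. PROS1 in 451Lu at 72 h against on drug was -0.0398 with no filter, and 8 others left out a library. Over left-out libraries, AXL on drug between the lines ran from -0.720 to 1.60 (lowest without A375 on-drug replicate 2), MERTK in 451Lu from -0.0328 to 0.127 at 120 h (lowest without 120 h replicate 1) and from -0.254 to 3.98e-04 for 72 h against 24 h (highest without 24 h replicate 2), and PROS1 in 451Lu at 72 h from -0.0708 to 0.0864 (below 0 without on-drug replicate 2 and without 72 h replicate 2). TYRO3 ran from -0.00776 to 0.0489 in A375 for 24 h against 6 h (lowest without 6 h replicate 1), from -0.207 to 0.0912 in A375 for 48 h against 24 h (highest without 48 h replicate 1) and from -0.118 to 0.0271 between the lines at 24 h (highest without 451Lu 24 h replicate 1). The cause was not tested.

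Counts of called genes over the whole table fell against a fold change of 1.5, which by construction asks for larger changes: to 4566, 4257 and 4525 in A375 at 6, 24 and 48 h, to 2373, 4387 and 5688 in 451Lu at 24, 72 and 120 h, to 4081 and 215 for the steps in A375 and 1768 and 550 for those in 451Lu, and to 7054, 7778 and 2722 for the lines on drug, at 24 h and in their 24 h change. DESeq2 called 2223 genes for A375 at 48 h against 24 h (edgeR 4318) and 2982 for 451Lu at 120 h against 72 h (edgeR 4531). The second count was 2851 to 4052 with 1 library left out, lowest without 72 h replicate 2. The titles carry the letters B and C in every group, with no word on what they mark. Deviations of libraries with the same letter correlated at -0.0393 to 0.0232 in A375, at -0.0195 to 0.00977 between on-drug and off-drug groups of 451Lu, and at 0.133 to 0.137 in all 3 pairs of 451Lu off-drug groups. Since not every pair was over 0.1, the fits left the letters out, and in the 451Lu off-drug groups a pairing is possible. With the replicate block the steps among those groups had 7453 and 5041 called genes, against 7126 and 4531 without it, and no member's call changed there. The block gave 10473 genes at 6 h in A375 and added a call for MERTK in the difference of 24 h changes (0.28, adjusted p = 0.0494). Of 42 pairs of a list and a comparison, 5 had a count that moved by over 1.5 times and by more than 1 gene. The test against a fold change of 1.5 was left out of this. The few AXL counts on drug, and those of GAS6 in 451Lu, limit their fold changes.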

Other observations

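MITF, the lineage factor of melanocytes, was set beside MERTK after their values were seen. MITF had 383 CPM in A375 on drug, 57.4 at 6 h, 112 at 24 h and 42.2 at 48 h, against 37.7, 9.39, 30.3 and 15.3 CPM for MERTK. In 451Lu MITF had 617 CPM on drug, 148 at 24 h, 291 at 72 h and 296 at 120 h, against 39.7, 26.3, 24.6 and 42.6 CPM for MERTK. Both were lower off drug in A375 with a partial return at 24 h, and in 451Lu MERTK at 120 h overlapped its on-drug level while MITF stayed below its own. Across the 8 groups, which share libraries and baselines, r of mean log2 CPM was 0.8347 for MERTK with MITF and -0.4508 for AXL with MITF. With MITF, r was 0.7193 for PROS1, 0.2216 for TYRO3 and -0.5042 for GAS6. The r for PROS1 includes the difference between the lines, with group means of 33.4 to 64.3 CPM in A375 and 100.8 to 109.0 CPM in 451Lu. In 451Lu no change of PROS1 was called, while MITF was lower off drug.

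GAS6-AS2, a lincRNA gene beside GAS6, had 9 and 10 counts in A375 on drug, 2 and 0 at 6 h, 14 and 3 at 24 h and 7 and 3 at 48 h, and 0 to 3 counts in any 451Lu library.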
